A study of Mus musculus with 44 samples.

Results

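A set of 9 genes that mark monocytes was followed through microglia sorted from mouse brain: Plac8, Ly6c2, S100a4, S100a6, Ifitm6, Fn1, Thbs1, Vcan and Lyz2. They were chosen by name, as the rows carrying these symbols in each of the 2 expression tables, and make up 9 of the 37583 genes of each table. The mice were 8 months old, and their microglia had been collected by FACS on CD11b and CD45, surface proteins that monocytes and neutrophils carry as well. Female groups were 5xFAD with T96K/T96K (7 libraries), 5xFAD with T96K/+ (9), 5xFAD with Trem2+/+ (6) and NonTg with Trem2+/+ (5). Male groups were 5xFAD with T96K/T96K (6), T96K/+ (6) and Trem2+/+ (5), and NonTg males were not analysed here. The 5xFAD transgenes encode mutant human amyloid precursor protein and presenilin under the neuronal Thy1 promoter, all male libraries carry them, and T96K is an allele of Trem2, a lipid receptor of microglia. The values, in RPKM (reads scaled to gene length and library size), hold no allele information, so genotypes rest on the labels.

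Monocytes form in the bone marrow, circulate in blood and can enter injured tissue, where they become macrophages that resemble microglia in many markers. Classical mouse monocytes are recognised by surface Ly6C and carry high Plac8, S100a4 and S100a6, while Fn1, Thbs1 and Vcan encode matrix or matrix-binding proteins that monocytes make and that vessel wall and connective tissue cells make too. Lyz2 encodes lysozyme M, an antibacterial enzyme of monocytes, neutrophils, macrophages and microglia. In bulk RNA, fewer cells of a type and less RNA per cell cannot be told apart.

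Libraries held 5.89 to 42.4 M reads in genes and fell into a shallow and a deep set that followed the library number. The 20 females numbered below 25 held 6.84 to 15.99 M reads and the 7 numbered 25 or higher held 26.5 to 42.4 M; the 14 males below 21 held 5.89 to 14.1 M and the other 3 held 29.8 to 34.1 M. Each group had 1 or 2 deep libraries, and no label names these sets. The library labelled female T96K/+ 22 goes against its sex label, with 0.416 RPKM of Xist and 29.3 RPKM summed over 4 Y-linked genes. The remaining 26 females held at least 16.9 RPKM of Xist and at most 0.130 RPKM of the Y-linked genes. Library 22 was kept, and no member gained or lost a call or turned sign without it. Each numbered library was read as 1 mouse, which the labels do not state outright, so p-values measure the spread between libraries. RNA of Ptprc, the gene of CD45, averaged 56.6 ± 5.31 RPKM in female T96K/T96K, 59.99 ± 8.76 in T96K/+ and 58.3 ± 3.82 in Trem2+/+ 5xFAD libraries, against 29.9 ± 7.50 in NonTg (SD). The 8 microglial markers summed to 2875 to 11699 RPKM in female and 4703 to 8226 RPKM in male libraries.

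Levels per gene length differed widely among the 9 genes. In females the median over 27 libraries was 826 RPKM for Lyz2, 23.8 for Fn1, 21.98 for S100a6, 9.64 for Ifitm6, 8.98 for Ly6c2, 8.84 for Thbs1, 7.23 for S100a4, 4.06 for Plac8 and 0.0516 for Vcan. In males the median over 17 libraries was 1070.4 RPKM for Lyz2, 46.2 for S100a6, 21.9 for Ly6c2, 20.7 for Ifitm6, 16.1 for Fn1, 12.9 for S100a4, 5.43 for Thbs1, 4.75 for Plac8 and 0.0264 for Vcan. The tables were scaled separately, so these levels are given side by side without a comparison. By median, Lyz2 stood far above and Vcan far below every other member in both tables. In females the ranges of the other 7 overlapped. In males Thbs1, at most 7.66 RPKM, lay below all values of Fn1 (at least 9.43) and S100a6 (at least 24.1). Male Plac8, at most 11.8 RPKM, also lay below all S100a6 values, and the remaining pairs overlapped. Vcan encodes versican, a large matrix proteoglycan. It stayed below 1 RPKM in every library, reaching 0.370 RPKM (207 reads) in female Trem2+/+ library 25 and 0.296 RPKM (31 reads) in male Trem2+/+ library 13. It had 0 reads in female NonTg library 28 and in male T96K/T96K library 24. There 3 reads, taken as an approximate upper limit behind a count of 0, would be 0.00617 and 0.00606 RPKM. This limit is not a hard maximum and covers counting error only. Vcan failed the filter of at least 1 RPKM in at least 5 libraries in both tables, so 8 of the 9 members were tested, among 14591 female and 13845 male genes.

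**Figure D1:**
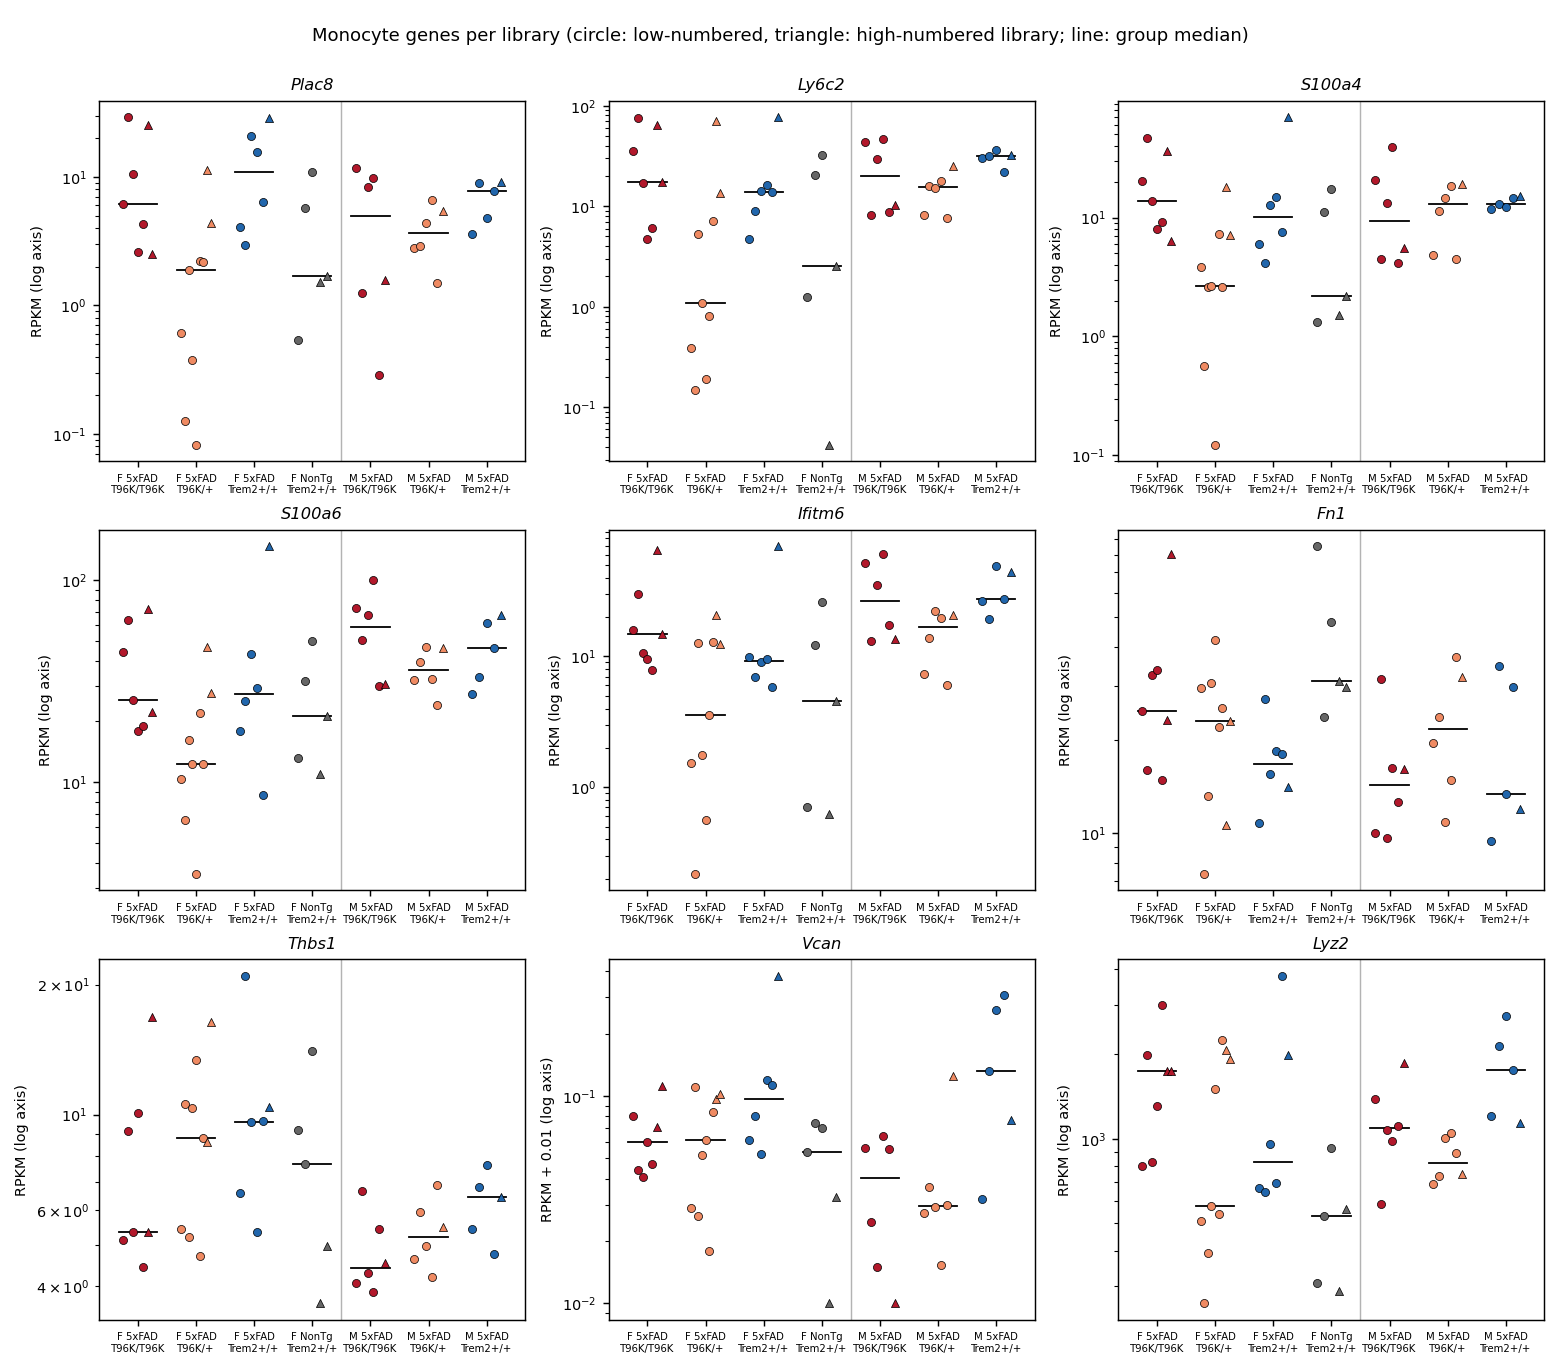
RPKM of each of the 9 genes on log axes (Vcan plus 0.01), 1 point per library, by group, with the group median as a line; triangles are the deep, high-numbered libraries. Ly6c2 in female T96K/+ libraries runs between 0.147 and 71.1 RPKM, whereas S100a4 in male Trem2+/+ libraries stays between 11.9 and 15.3 RPKM.

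Plac8 encodes a small cysteine-rich protein of myeloid cells (mm9 chromosome 5, 100982744 to 101001264, - strand). Female T96K/T96K libraries held 2.53 to 29.3 RPKM (median 6.14), T96K/+ libraries 0.0824 to 11.3 (median 1.87) and Trem2+/+ 5xFAD libraries 2.95 to 28.6 (median 11.01). The 5 NonTg females held 0.534, 1.51, 1.70, 5.76 and 10.8 RPKM. Female T96K/+ libraries lay low as a group, but library 26 at 11.3 RPKM stood inside the ranges of both other 5xFAD genotypes, so the groups overlapped. Male T96K/T96K libraries held 0.289 to 11.8 RPKM (median 4.94), T96K/+ libraries 1.49 to 6.59 (median 3.64) and the 5 Trem2+/+ libraries 3.59, 4.75, 7.78, 8.94 and 9.09. The male T96K/T96K libraries fell apart into 3 at 1.59 RPKM or less and 3 at 8.29 RPKM or more.

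Ly6c2 encodes part of the Ly6C antigen that defines classical monocytes (mm9 chromosome 15, 74938590 to 74942114, - strand). Its female T96K/T96K libraries held 4.71 to 75.2 RPKM (median 17.5), the T96K/+ libraries 0.147 to 71.1 (median 1.09) and the Trem2+/+ 5xFAD libraries 4.69 to 77.4 (median 13.9). NonTg females held 0.0424, 1.24, 2.54, 20.4 and 32.5 RPKM, the lowest value resting on 1 read. Every female group thus held low and high libraries side by side, and the groups overlapped. Males were narrower, at 8.26 to 47.0 RPKM in T96K/T96K (median 19.8), 7.59 to 25.3 in T96K/+ (median 15.5) and 21.9, 30.5, 31.6, 32.4 and 35.9 in Trem2+/+. All but 1 of the male T96K/+ libraries lay below the lowest Trem2+/+ library.

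Ly6c2 has a near-identical neighbour, Ly6c1, which brain endothelium expresses strongly, and the exon pair that shows how alike they are is printed here from the mm9 genome, with capitals at the bases that differ between them. The last coding exons of 206 bases lie at chr15:74938976-74939181 (Ly6c2) and chr15:74875835-74876040 (Ly6c1), both on the - strand, and differ at 3 bases.
Ly6c2: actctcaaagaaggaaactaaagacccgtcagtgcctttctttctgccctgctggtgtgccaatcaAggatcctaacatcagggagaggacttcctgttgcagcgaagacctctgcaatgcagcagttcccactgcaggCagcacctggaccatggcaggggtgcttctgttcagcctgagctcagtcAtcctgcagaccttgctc
Ly6c1: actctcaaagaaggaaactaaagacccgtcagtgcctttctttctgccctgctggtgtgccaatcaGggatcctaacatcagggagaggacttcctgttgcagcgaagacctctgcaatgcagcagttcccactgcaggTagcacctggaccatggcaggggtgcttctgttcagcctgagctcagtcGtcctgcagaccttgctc
The coding exon before it, 117 bases long, is the same in both genes. Over the 396 coding bases 9 differed (97.7% identical), and 252 of the 747 stretches of 50 bases in the Ly6c2 transcript (33.7%) also occur in Ly6c1. No source used here says how reads that fit both genes were counted. Ly6c1 stood at 226 to 1406 RPKM in female and 289 to 1115 RPKM in male libraries. A relation between the levels of the 2 genes was not detected, with Pearson r -0.06 and Spearman rho -0.03 over 27 females (permutation p = 0.753 and 0.883) and r -0.26 and rho -0.20 over 17 males (permutation p = 0.304 and 0.448). Adjusted over 30 pairs, the p of r was 0.802 in females and 0.434 in males. Without the 2 libraries farthest from the median r was -0.09 in each sex, and within the low-numbered libraries it was 0.05 in females and -0.26 in males. Female T96K/+ library 8 had 1 read of Ly6c2, while every T96K/+ library held at least 258 RPKM of Ly6c1.

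S100a4 and S100a6 encode small calcium-binding proteins of motile cells. They lie close together on chromosome 3 (mm9 90407692 to 90409967 and 90416816 to 90418336, + strand), with S100a5 between them. S100a4 stood at 6.32 to 46.4 RPKM in female T96K/T96K libraries (median 13.8), 0.123 to 18.2 in T96K/+ (median 2.65), 4.12 to 70.2 in Trem2+/+ 5xFAD (median 10.2) and 1.33, 1.52, 2.20, 11.2 and 17.2 in NonTg. S100a6 stood at 17.96 to 72.3 RPKM in T96K/T96K (median 25.6), 3.51 to 46.6 in T96K/+ (median 12.3), 8.62 to 147 in Trem2+/+ 5xFAD (median 27.4) and 11.04, 13.2, 21.3, 31.9 and 49.9 in NonTg. All female groups overlapped for both genes, and library 25 held the highest value of each. In males S100a4 stood at 4.14 to 39.3 RPKM in T96K/T96K (median 9.43) and 4.47 to 19.3 in T96K/+ (median 13.04), against 11.9, 12.2, 12.9, 14.7 and 15.3 in Trem2+/+. The Trem2+/+ males were the tightest set of S100a4 values, at 13.4 ± 1.52 RPKM (SD, n = 5), and lay inside the range of both T96K genotypes. Male S100a6 stood at 29.96 to 101 RPKM in T96K/T96K (median 59.1) and 24.1 to 46.6 in T96K/+ (median 35.8), against 27.3, 33.2, 46.3, 61.7 and 67.0 in Trem2+/+, again overlapping.

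Ifitm6 encodes a membrane protein of the interferon-induced transmembrane family, expressed in monocytes and neutrophils (mm9 chromosome 7, 148201711 to 148202791, - strand). Female T96K/T96K libraries held 7.84 to 64.8 RPKM (median 14.9), T96K/+ libraries 0.217 to 20.8 (median 3.56) and Trem2+/+ 5xFAD libraries 5.83 to 69.5 (median 9.30). NonTg females held 0.624, 0.712, 4.53, 12.2 and 26.3 RPKM. As with Ly6c2, the lowest female libraries rested on a few reads, 1 in T96K/+ library 8 and 4 in T96K/+ library 18. Males held 13.1 to 61.0 RPKM in T96K/T96K (median 26.4), 6.03 to 22.3 in T96K/+ (median 16.8) and 19.3, 26.6, 27.6, 44.6 and 49.5 in Trem2+/+. The male T96K/+ maximum of 22.3 RPKM passed only the lowest of the 5 Trem2+/+ libraries, so these groups overlapped at 1 end.

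Fn1 encodes fibronectin (mm9 chromosome 1, 71632094 to 71699774, - strand). Female T96K/T96K libraries held 14.9 to 80.5 RPKM (median 24.9), T96K/+ libraries 7.37 to 42.4 (median 23.1) and Trem2+/+ 5xFAD libraries 10.7 to 27.3 (median 16.8), against 23.8, 29.8, 31.2, 48.2 and 85.0 in NonTg. Males held 9.67 to 31.6 RPKM in T96K/T96K (median 14.3), 10.9 to 37.1 in T96K/+ (median 21.7) and 9.43, 11.97, 13.4, 29.8 and 34.9 in Trem2+/+. In females the Trem2+/+ 5xFAD libraries lay low and NonTg lay high, with only Trem2+/+ library 7 reaching into the NonTg range. Thbs1 encodes thrombospondin 1, an adhesive glycoprotein of platelets and macrophages (mm9 chromosome 2, 117937612 to 117952869, + strand). It stood at 4.44 to 16.8 RPKM in female T96K/T96K (median 5.35), 4.71 to 16.4 in T96K/+ (median 8.84), 5.35 to 20.97 in Trem2+/+ 5xFAD (median 9.62) and 3.65, 4.97, 7.69, 9.23 and 14.01 in NonTg. Male Thbs1 stood at 3.89 to 6.66 RPKM in T96K/T96K (median 4.40), 4.21 to 6.88 in T96K/+ (median 5.22) and 4.75, 5.45, 6.43, 6.81 and 7.66 in Trem2+/+. Over all males Thbs1 thus stayed between 3.89 and 7.66 RPKM, and its groups overlapped in both sexes.

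Lyz2 lies on mm9 chromosome 10, 116714390 to 116719377, - strand. Female T96K/T96K libraries held 799 to 2997 RPKM (median 1736), T96K/+ libraries 259.6 to 2240.5 (median 575) and Trem2+/+ 5xFAD libraries 648 to 3797 (median 827), against 286, 307, 531, 563 and 924 in NonTg. Only NonTg library 24, at 924 RPKM, reached above the lowest T96K/T96K libraries. Males held 585 to 1858 RPKM in T96K/T96K (median 1091), 692 to 1051 in T96K/+ (median 822) and 1141, 1200.5, 1749.7, 2144 and 2731 in Trem2+/+. Every male T96K/+ library lay below every Trem2+/+ library. Its paralog Lyz1, an intestinal lysozyme, is also close in sequence, and exon 2 of each (165 bases) is printed from mm9, chr10:116717697-116717861 for Lyz2 and chr10:116728085-116728249 for Lyz1, - strand, with capitals at the 6 bases that differ.
Lyz2: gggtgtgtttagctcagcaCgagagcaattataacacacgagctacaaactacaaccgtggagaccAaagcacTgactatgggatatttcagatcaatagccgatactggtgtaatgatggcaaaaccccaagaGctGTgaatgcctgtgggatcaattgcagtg
Lyz1: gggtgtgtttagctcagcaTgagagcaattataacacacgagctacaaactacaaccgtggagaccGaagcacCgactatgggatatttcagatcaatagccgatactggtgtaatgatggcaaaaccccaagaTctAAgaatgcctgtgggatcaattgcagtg
Over the 447 coding bases 22 differed (95.1% identical), and 195 of the 1264 stretches of 50 bases in Lyz2 (15.4%) occur in Lyz1. Lyz1 stood at 0 to 4.03 RPKM in female and 0.420 to 2.84 RPKM in male libraries, against at least 259.6 RPKM of Lyz2.

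The first set of comparisons placed each female 5xFAD genotype against the same 5 NonTg libraries, which are Trem2+/+. By the labels, only Trem2+/+ 5xFAD against NonTg differs in the transgenes alone. T96K/T96K and T96K/+ differ from NonTg in Trem2 as well, so 5xFAD and T96K cannot be told apart there. These 3 comparisons share their controls, so they are not independent of each other. Values were compared with limma on log2(RPKM + 1), which understates changes of low genes, and a gene was called at a Benjamini-Hochberg adjusted p under 0.05 over all genes tested. In T96K/T96K against NonTg, 1 of the 8 tested members was called, where 15.3% of all genes were. Lyz2 rose to 1627 ± 759.6 RPKM in T96K/T96K (SD, n = 7), against 522 ± 257 in NonTg (n = 5), a log2 change of 1.64 (SE 0.54, limma adjusted p = 0.0380), or 3.11-fold. The uncalled log2 differences were 1.95 for Ly6c2 (SE 0.97), 1.68 for Ifitm6 (SE 0.78), 1.66 for S100a4 (SE 0.69), 1.21 for Plac8 (SE 0.66), 0.56 for S100a6 (SE 0.56), 0.02 for Thbs1 (SE 0.34) and -0.48 for Fn1 (SE 0.39). The median over the 8 tested members was 1.43, against 0.03 over all genes tested. Within the low-numbered libraries the Lyz2 change was 1.38 with an adjusted p of 0.152 by limma, in a smaller fit of 20 libraries. There the differences of the correlated members were 1.07 for S100a4, 0.80 for Plac8, 0.74 for Ifitm6, 0.64 for Ly6c2 and 0.12 for S100a6. Of 10 tested neutrophil genes, 8 had an unadjusted p under 0.05, all higher and none called (median log2 difference 1.82), where 16.4% of all genes were higher at that level. Their part in the Lyz2 result was not tested. Without NonTg library 4 the Lyz2 change was 1.48 (limma adjusted p = 0.113), without NonTg 28 it was 1.45 (0.0856) and without NonTg 30 it was 1.70 (0.0543). Without T96K/T96K library 9 it was 1.56 (limma adjusted p = 0.0650), without library 21 it was 1.47 (0.0817) and without library 27 it was 1.60 (0.0636).

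In T96K/+ against NonTg, 0 of the 8 tested members were called by limma, where 17.3% of all genes were, and 1 had an unadjusted p under 0.05, lower, as did 12.9% of all genes. That member was Fn1, at 22.7 ± 11.1 RPKM in T96K/+ (SD, n = 9) and 43.6 ± 24.9 RPKM in NonTg (n = 5), a log2 difference of -0.92 (SE 0.37, limma adjusted p = 0.0908). Lyz2 stood at 0.82 (SE 0.51) and Plac8 at -0.57 (SE 0.63) on the log2 scale, both uncalled. Of the endothelial markers 6 of 8 were called lower here, where 7.07% of all genes were. The median over the 8 members was -0.37, against 0.03 over all genes. Within the low-numbered libraries the differences were -2.33 for Ly6c2, -1.41 for Plac8, -1.34 for S100a4, -1.32 for S100a6 and -1.16 for Ifitm6, so they lay farther below 0 than over all libraries.

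In Trem2+/+ 5xFAD against NonTg, 1 of the 8 tested members was called, where 23.6% of all genes were. Fn1 fell to 17.4 ± 5.62 RPKM in Trem2+/+ 5xFAD (SD, n = 6), against 43.6 ± 24.9 in NonTg (n = 5), a log2 change of -1.18 (SE 0.40, limma adjusted p = 0.0344), or 2.27-fold lower. It was -1.37 within the low-numbered libraries (limma adjusted p = 0.0322). Without NonTg library 4, the highest at 85.0 RPKM, the Fn1 change was -0.90 (limma adjusted p = 0.137), and without NonTg 24 it was -1.11 (0.0814). Without Trem2+/+ library 1 it was -1.06 (limma adjusted p = 0.0763), without library 13 it was -1.16 (0.0572) and without library 25 it was -1.13 (0.0653). Fn1 is also made by vessel and connective tissue cells, and their markers moved with it. All 8 endothelial markers were called lower in the same comparison (median log2 change -1.39), as were 6 of 9 fibroblast and mural markers (median -1.19). Across all genes 10% were called lower. Of 8 tested markers of astrocytes and oligodendrocyte precursors, 4 were called lower and 1 higher (median -0.52). The endothelial markers summed to 436 to 1003 RPKM in Trem2+/+ 5xFAD and 1227 to 2716 RPKM in NonTg. The highest of these sums, 2716 RPKM, was in NonTg library 4. Their part in the Fn1 result was not tested. The uncalled log2 differences were 1.497 for Ly6c2 (SE 1.01), 1.495 for Plac8 (SE 0.69), 1.29 for S100a4 (SE 0.71), 1.26 for Lyz2 (SE 0.55), 1.19 for Ifitm6 (SE 0.80), 0.45 for S100a6 (SE 0.58) and 0.36 for Thbs1 (SE 0.35). The median over the 8 members was 1.23, against 0.04 over all genes. Within the low-numbered libraries the differences were 0.83 for Plac8, 0.20 for S100a4, 0.10 for Ifitm6, -0.0042 for Ly6c2 and -0.32 for S100a6. Of 16 other monocyte genes, 14 were tested and 2 were called higher, Ms4a4c, a membrane protein gene, at 1.65 (SE 0.40), and Itgal, an integrin subunit, at 1.03 (SE 0.36). This share is near the 13.5% of all genes called higher. Ms4a4c was the 1 gene of this list called in T96K/T96K against NonTg, at 1.27 (SE 0.39).

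**Figure D2:**
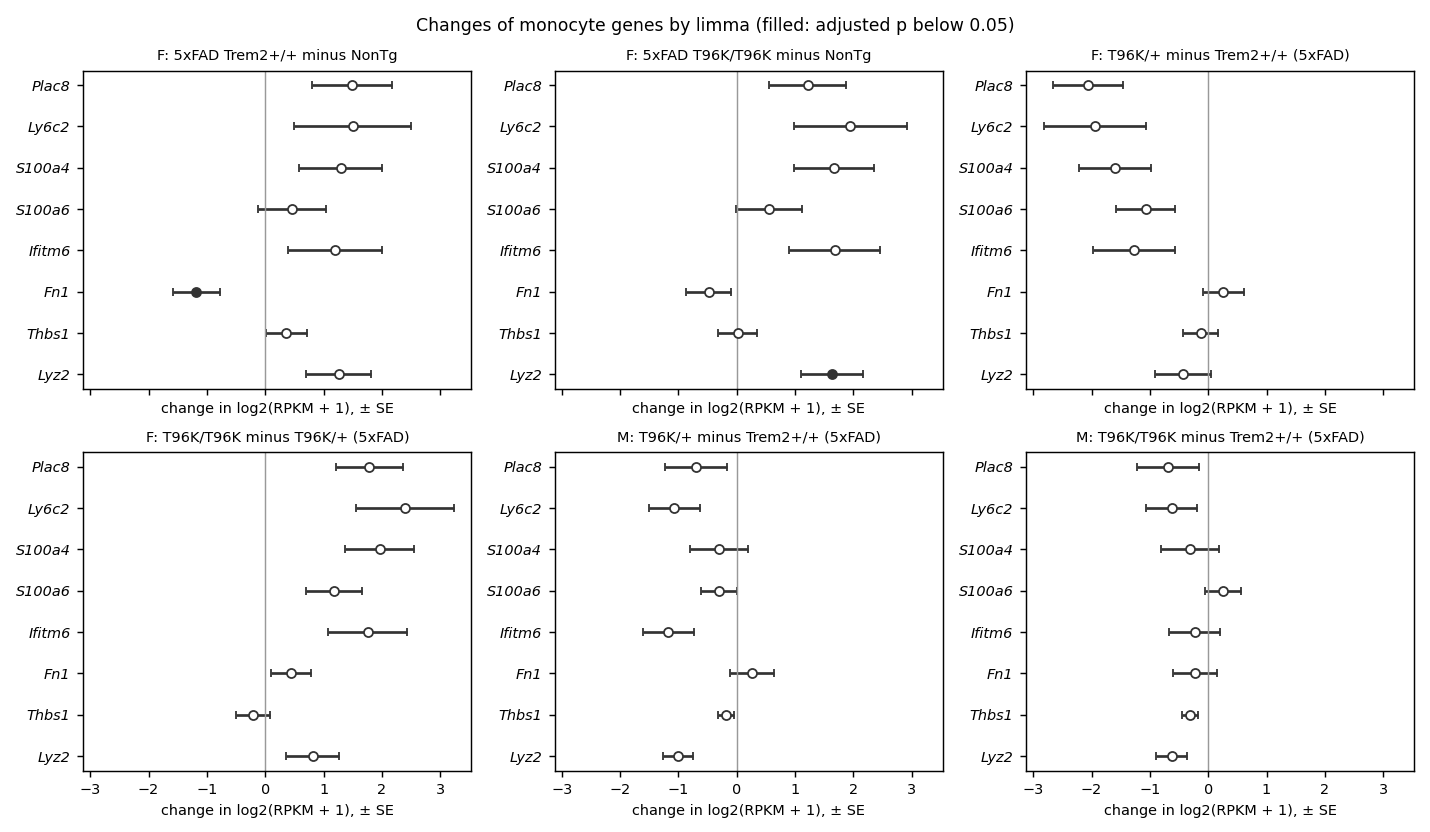
Change in log2(RPKM + 1) of the 8 tested genes in 6 comparisons, with points for the estimate, bars for ± 1 SE and filled points for an adjusted p under 0.05. Only Fn1 in female Trem2+/+ 5xFAD against NonTg (-1.18) and Lyz2 in female T96K/T96K against NonTg (1.64) are filled.

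The second set asked what T96K did on the 5xFAD background. No gene was called by limma in any of these comparisons in either sex (0% of genes), so members are set against the share of genes with an unadjusted p under 0.05. In female T96K/+ against Trem2+/+, 4 of the 8 tested members had an unadjusted p under 0.05, all lower, where 2.15% of all genes were lower at that level. Plac8 averaged 2.57 ± 3.54 RPKM in T96K/+ (SD, n = 9) and 13.1 ± 10.4 in Trem2+/+ (n = 6). The log2 difference of Plac8 was -2.06 (SE 0.60, limma adjusted p = 0.994). Ly6c2 stood at -1.94 (SE 0.88), S100a4 at -1.59 (SE 0.62), Ifitm6 at -1.27 (SE 0.70, not among the 4) and S100a6 at -1.07 (SE 0.51). Lyz2 at -0.43 (SE 0.48), Thbs1 at -0.13 (SE 0.30) and Fn1 at 0.26 (SE 0.35) lay closer to 0. The 8 members had a median of -1.17 and all genes one of -0.0015 (log2). None of these differences passes the correction over all genes, and every member's groups overlapped. Of 14 tested other monocyte genes, 6 were lower in the same comparison at an unadjusted p under 0.05 (median -0.70, 13 below 0), none called. Erythroid markers were lower for 3 of 5 tested genes at that level (median -1.33), as were 2 of 4 dendritic cell markers (median -0.39), none called. Their part in the member values was not tested.

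In female T96K/T96K against T96K/+, 5 of the 8 members had an unadjusted p under 0.05, all higher, where 1.81% of all genes were higher at that level. These were Ly6c2 with a log2 difference of 2.39 (SE 0.84), S100a4 with 1.96 (SE 0.59), Plac8 with 1.78 (SE 0.57), Ifitm6 with 1.75 (SE 0.67) and S100a6 with 1.18 (SE 0.48), each with a limma adjusted p of 0.978. S100a4 averaged 20.1 ± 15.6 RPKM in T96K/T96K (SD, n = 7) and 4.98 ± 5.54 in T96K/+ (n = 9). Within the low-numbered libraries the Ly6c2 difference was 2.97 (limma adjusted p = 0.399). In female T96K/T96K against Trem2+/+, 0 of the 8 members had an unadjusted p under 0.05, where 3.73% of genes did, with log2 differences between -0.34 for Thbs1 (SE 0.32) and 0.70 for Fn1 (SE 0.37). The 2 T96K comparisons with Trem2+/+ share those 6 libraries. Likewise, T96K/+ against Trem2+/+ and T96K/T96K against T96K/+ share the 9 T96K/+ libraries. Low members in T96K/+ enter each of them, so they are not independent findings.

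In male T96K/+ against Trem2+/+, 3 of the 8 members had an unadjusted p under 0.05, all lower, where 7.76% of all genes were lower at that level. Lyz2 averaged 855 ± 150.0 RPKM in T96K/+ (SD, n = 6) and 1793 ± 667 in Trem2+/+ (n = 5). The log2 difference of Lyz2 was -1.01 (SE 0.26, limma adjusted p = 0.237). It was the 1 member whose groups did not overlap, as for 1.43% of all genes in that direction. Beside it, 3 of 8 microglial markers were lower at an unadjusted p under 0.05 (median -0.28, all 8 below 0), none called. Of 9 fibroblast and mural markers, 5 were higher at that level (median 0.62), none called, where 4.54% of all genes were higher. Their part in the Lyz2 value was not tested. Ifitm6 stood at -1.17 (SE 0.44, limma adjusted p = 0.332) and Ly6c2 at -1.07 (SE 0.44, limma adjusted p = 0.354). Plac8 stood at -0.70 (SE 0.53) and S100a4 at -0.30 (SE 0.50). In male T96K/T96K against Trem2+/+, 2 members had an unadjusted p under 0.05, both lower, where 4.64% of genes were lower at that level. They were Lyz2 at -0.63 (SE 0.26) and Thbs1 at -0.32 (SE 0.14), each with a limma adjusted p of 0.549. In male T96K/T96K against T96K/+, 1 member did, Ifitm6 at 0.94 (SE 0.42, limma adjusted p = 0.999), where 1.7% of genes were higher at that level. The male comparisons share their groups with each other, T96K/+ (n = 6) among them, so they are not independent either. Whether any T96K effect on these genes differed between the sexes was not tested, since each table was handled on its own.

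Across libraries, Plac8, Ly6c2, S100a4, S100a6 and Ifitm6 varied together, and Fn1 and Thbs1 did not follow them. These 5 were set apart after their values were seen. Among 27 females Plac8 and S100a4 correlated on log2(RPKM + 1) with Pearson r 0.93 and Spearman rho 0.94 (permutation p = 1e-05 for each, the smallest that 100000 permutations can give, and adjusted p = 3e-05 for r over 30 pairs). Leaving out the 2 libraries farthest from the median gave r 0.91, and r was 0.91 within the 20 low-numbered and 0.98 within the 7 high-numbered libraries. Among 17 males the same pair gave r 0.87 and rho 0.88 (permutation p = 1e-05 and 2e-05, adjusted p = 0.0001 for r), r 0.82 without the 2 farthest libraries and 0.87 within the 14 low-numbered ones. The 3 high-numbered males are too few for a value. Over the 10 pairs among these 5 genes r ran between 0.84 and 0.93 in females (median 0.88) and between 0.63 and 0.89 in males (median 0.79). Deviations from the group means gave r between 0.81 and 0.91 in females and 0.73 and 0.93 in males, so the relation was also present within genotypes.

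Pairs of these 5 genes with Fn1, Thbs1 and Lyz2 gave r between -0.30 and 0.59 in females and between -0.56 and 0.45 in males. Lyz2 was the nearest to them in females, with r 0.59 to Ly6c2 (rho 0.58, permutation p = 0.00141 for r and adjusted p = 0.00385, r 0.47 without the 2 farthest libraries, 0.40 within low-numbered and 0.92 within high-numbered libraries). Female Lyz2 also correlated with Ifitm6 (r 0.57, permutation adjusted p = 0.00545), Plac8 (r 0.49, 0.0230) and S100a4 (r 0.49, 0.0230). A relation to S100a6 was not detected (r 0.29, permutation adjusted p = 0.248). Within the low-numbered females these r were 0.40, 0.39, 0.34 and 0.04. In males the Lyz2 and Ly6c2 pair gave r 0.45 and rho 0.52 (permutation p = 0.0710 for r, adjusted p = 0.177), with r 0.31 without the 2 farthest libraries and 0.63 within the low-numbered ones. Fn1 and Ifitm6 in males gave the lowest value of any pair, r -0.56 and rho -0.56 (permutation p = 0.0207 for r, adjusted p = 0.0565), with r -0.46 without the 2 farthest libraries and -0.58 within the low-numbered ones.

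**Figure D3:**
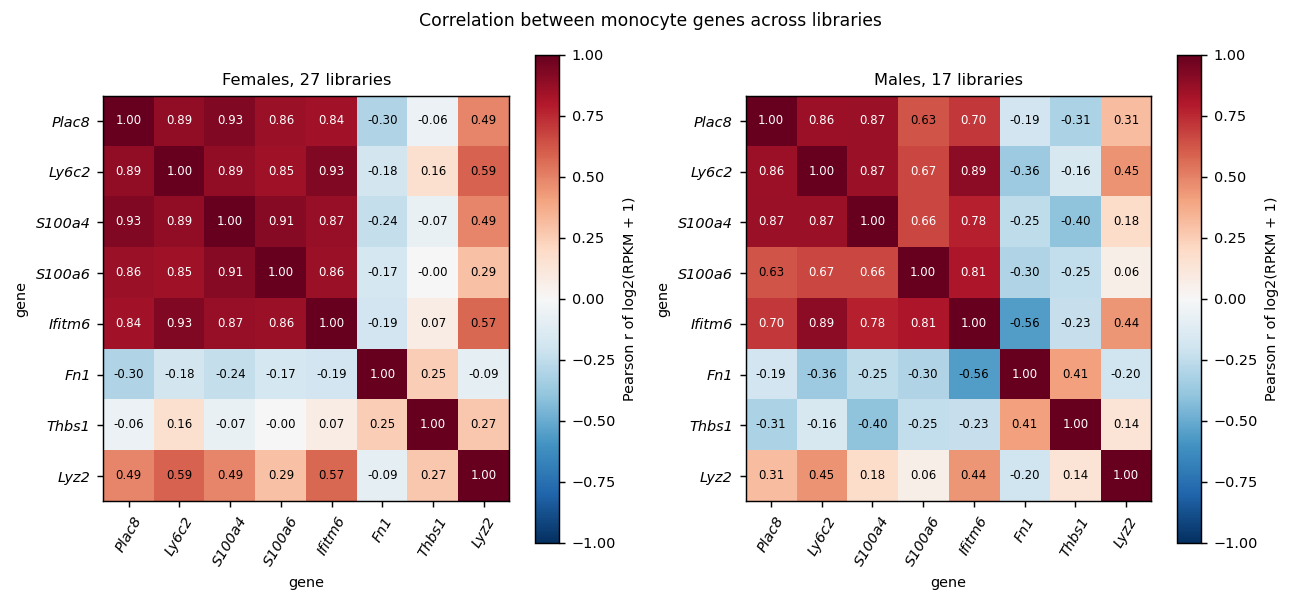
Pearson r of log2(RPKM + 1) between the 8 tested genes across 27 female (left) and 17 male (right) libraries, on a colour scale from -1 to 1. The 5 genes Plac8 to Ifitm6 form a block at 0.84 to 0.93 in females and 0.63 to 0.89 in males, and Fn1, Thbs1 and Lyz2 lie outside it.

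The same libraries stood at the ends for all 5 genes. Female Trem2+/+ library 25 and T96K/T96K library 9 were among the top 3 of 27 for 5 of the 5 genes, and T96K/T96K library 27 for 4. T96K/+ libraries 8 and 18 were among the bottom 3 for all 5. In males T96K/T96K libraries 5 and 11 were among the top 3 of 17 for all 5 genes, and T96K/+ library 14 was among the bottom 3 for all 5. High libraries therefore occurred in every female group. T96K/+ library 26 ranked between 3 and 6 for each gene, and NonTg library 24 ranked between 4 and 7. Lyz2 ranked 10 of 27 in library 18, at 1497 RPKM, although that library was at the bottom for the others, and Fn1 ranked 4 there.

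Genes whose levels followed the members most closely, by Spearman rho with the mean standardised level of the members over the libraries of a table, were taken from the first 6 per table. In females these included Hp (0.91), Gpr141 (0.90), Napsa (0.89), Plbd1 (0.88) and Retnlg (0.88), over 27 libraries. In males they were Cxcr2 (0.89), Dmxl2 (0.88), Slfn1 (0.88), Trpm7 (0.87), Retnlg (0.87) and Hp (0.86), over 17 libraries. Hp encodes haptoglobin, Retnlg a resistin-like protein of neutrophils and Cxcr2 the chemokine receptor of neutrophils. Points share library and depth, so these values are a description.

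The 12 neutrophil markers summed to 1087 to 5427 RPKM in female T96K/T96K libraries, 33.4 to 2029 in T96K/+, 427 to 6147 in Trem2+/+ 5xFAD and 99.4 to 2777 in NonTg. In males they summed to 2887 to 8298 RPKM in T96K/T96K, 1737 to 3697 in T96K/+ and 2336 to 6871 in Trem2+/+. The highest female sums were in libraries 25 and 27 and the lowest in library 18, which are also ends of the member values. In female T96K/T96K against T96K/+, 9 of 10 tested neutrophil genes and 9 of 14 other monocyte genes had an unadjusted p under 0.05, all higher and none called, where 1.81% of all genes were higher at that level. Among them were Chi3l3, a lectin of myeloid cells (log2 difference 2.35, SE 0.65), the calcium-binding proteins S100a8 (2.06, SE 0.81) and S100a9 (1.93, SE 0.80), Hp (1.65, SE 0.60) and Ccr2, the receptor that draws monocytes into tissue (0.80, SE 0.28). In male T96K/+ against Trem2+/+, 7 of 11 neutrophil and 6 of 13 other monocyte genes had one, all lower and none called, where 7.76% of all genes were lower at that level, Chi3l3 at -0.92 (SE 0.39) and Ccr2 at -0.70 (SE 0.30) among them. In male T96K/T96K against T96K/+, 7 of 11 neutrophil genes were higher at an unadjusted p under 0.05 (median 0.84), against 1 of 8 members (median 0.19) and 1.7% of all genes. In female T96K/+ against Trem2+/+, 2 of 10 neutrophil genes were lower at that level (median -0.97), against 4 of 8 members (median -1.17) and 2.15% of all genes. The neutrophil genes' part in the member values was not tested. Markers of T and NK cells lay near 0, with none of 10 passing the filter in either table and sums of 0.318 to 5.65 RPKM in females and 0.778 to 3.41 RPKM in males. Elane and Mpo, made by immature neutrophils in bone marrow, stood at 0 in the lowest library of every group and reached at most 4.12 and 0.574 RPKM.

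**Figure D4:**
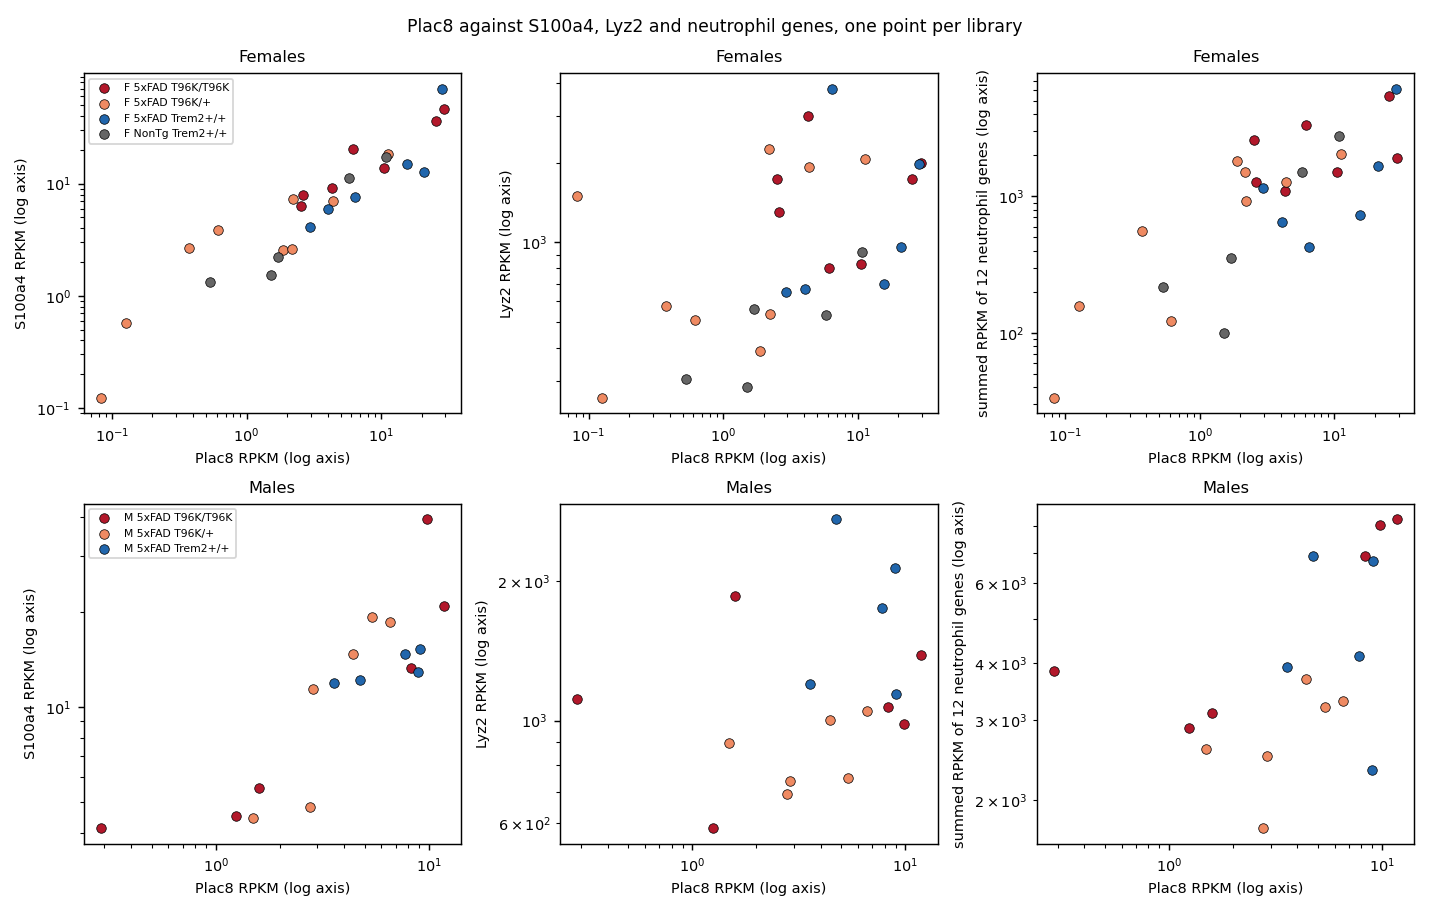
Plac8 RPKM on the x axis against S100a4, Lyz2 and the summed RPKM of 12 neutrophil genes on the y axes, all log axes, 1 point per library coloured by group, females above and males below. S100a4 follows Plac8 along a line (r 0.93 in females), while Lyz2 follows it less closely (r 0.49).

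Promoter sequence was looked at because 5 of the genes moved together. RefSeq windows of 300 bases (250 before to 50 after a start, GRCm38.p6) were at hand for 7 of the 9 members in 9 windows, among 32851 windows of all genes. The core site of PU.1, the factor that specifies myeloid cells, searched as AGAGGAAGT on both strands, occurred in 1.0% of all windows (330) and in those of S100a4 and Ly6c2. The Ly6c2 windows overlap and hold the same site. No window of Plac8, S100a6 or Ifitm6, the rest of the genes that moved together, held it, nor did those of Lyz2 and Vcan. The C/EBP half-site pair TTGCNNAA occurred in 10.8% of windows and in 1 of Plac8, and the STAT site TTCNNNGAA in 8.30% and in that of Ifitm6. The S100a4 window (chr3:90603520-90603819, + strand) and 1 of the overlapping Ly6c2 windows (chr15:75111922-75112221, - strand) are printed with the PU.1 core in capitals, read on the opposite strand in S100a4.
S100a4: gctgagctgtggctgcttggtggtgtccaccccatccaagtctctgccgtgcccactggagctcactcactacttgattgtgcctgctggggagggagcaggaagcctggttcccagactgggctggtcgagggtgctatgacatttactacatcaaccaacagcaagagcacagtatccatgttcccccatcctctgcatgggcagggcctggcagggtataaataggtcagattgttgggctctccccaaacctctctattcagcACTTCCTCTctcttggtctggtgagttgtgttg
Ly6c2: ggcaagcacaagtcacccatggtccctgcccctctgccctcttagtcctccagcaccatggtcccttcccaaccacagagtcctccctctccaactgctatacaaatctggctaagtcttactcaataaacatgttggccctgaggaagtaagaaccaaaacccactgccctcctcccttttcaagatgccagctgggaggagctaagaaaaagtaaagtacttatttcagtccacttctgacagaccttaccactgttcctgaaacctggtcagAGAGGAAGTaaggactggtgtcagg
A match of letters is a description of these windows and says nothing on binding.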

How the data were processed

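Microglia RNA was read from 27 female and 17 male libraries. Per the labels' protocols, a low-input SMART-Seq v4 reaction gave the cDNA and Nextera XT the libraries, a chemistry that does not mark strand, so antisense reads cannot be told apart. Reads were aligned to mm9 with STAR, per the series design text, and HTSeq and edgeR also stand in the submitters' processing notes, with no version. The authors deposited RPKM per gene in 2 tables, scaled separately, so each table was tested on its own. Multiplied by gene length, 100.0% of the deposited RPKM values were whole reads within 0.01 reads, which gave depth and reads per value. The library sizes behind the RPKM differed from the reads in genes by a factor per library. It was 1.03 to 1.26 in NonTg females, 0.80 to 1.09 in 5xFAD females and 0.90 to 1.13 in males. A higher factor lowers RPKM, and its part in the comparisons with NonTg was not tested.

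A gene was tested where 5 or more libraries of its table reached 1 RPKM, and log2(RPKM + 1) was fitted with limma 3.58.1 in R 4.3.3 (trend and robust options), with 1 mean per group and all groups of a sex in the fit. P-values were adjusted by Benjamini-Hochberg over all genes of a comparison, and an adjusted p under 0.05 was a call. The fit was tested on simulated data. Correlations used 100000 permutations in scipy 1.17.1, two-sided. Named genes were the 9 members, the called genes of the other monocyte list, and the 6 genes per table most like the members, of which 1 female gene is not reported here; a few other list genes were chosen after their values were seen. The members and lists were chosen with earlier results of these data known. Alternatives were a pseudocount of 0.1, no filter, a filter on the mean, quantile normalization, the library number set as a covariate, low-numbered libraries only, the fit without female library 22, and each library left out. Gene lengths and coordinates are those of the files and of mm9.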

Additional observations from a re-analysis of the deposited data

Results flagged for a closer look

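Within groups of 4 to 10 libraries, 13 of the 63 gene and group combinations held a library far from its neighbours by Dixon's test at the 95% level. The test used RPKM without a log, and in all 13 the library was the highest of its group. Chance flags about 1 in 20 groups only where values are normally distributed, which was not checked. The members' values are also not independent of each other. Female Trem2+/+ library 25 was far above its group for 5 genes. It held 77.4 RPKM of Ly6c2 (next library 16.2), 70.2 of S100a4 (next 14.997), 69.5 of Ifitm6 (next 9.87), 147 of S100a6 (next 43.2) and 0.370 of Vcan (next 0.109). Female T96K/+ library 26 stood apart for 3 genes, at 71.1 RPKM for Ly6c2, 18.2 for S100a4 and 11.3 for Plac8. Female T96K/T96K library 27 held 64.8 RPKM of Ifitm6. Libraries 25, 26 and 27 are consecutive in number and belong to the deep set, and each comes from another genotype.

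Other single libraries stood apart for a gene outside the correlated block. Fn1 reached 80.5 RPKM in female T96K/T96K library 34 and 31.6 RPKM in male T96K/T96K library 6, where the next library of its group held 16.2 RPKM. Thbs1 reached 20.97 RPKM in female Trem2+/+ library 7. Vcan reached 0.115 RPKM, from 57 reads, in male T96K/+ library 22.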

How the results depend on the processing

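Of the counts of called members recomputed under an alternative or without a library, 158 equalled the main count, 15 were lower and 2 higher. Both calls were lost with no filter, where more genes enter the adjustment (0 members called in female Trem2+/+ 5xFAD against NonTg and 0 in T96K/T96K against NonTg). The T96K/T96K count was also 0 under quantile normalization (Lyz2 at 0.82) and within the low-numbered libraries, and the T96K/+ count against NonTg was 1 under quantile normalization (Fn1 at -1.08); the cause was not tested. With 1 library left out, the count ran between 0 and 1 in each of these 3 comparisons and was 0 in the other 6. Fn1 then ran between -1.35 and -0.90 in Trem2+/+ 5xFAD against NonTg, between -1.09 and -0.65 in T96K/+ against NonTg, and Lyz2 between 1.45 and 1.87 in T96K/T96K against NonTg.

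Uncalled log2 changes turned sign in places. Within low-numbered libraries these were Ly6c2 (-0.0042, against 1.497 over all libraries), S100a6 (-0.32) and Thbs1 (-0.088) in female Trem2+/+ 5xFAD against NonTg, Thbs1 in T96K/+ (-0.31) and T96K/T96K (-0.55) against NonTg, and in males Ifitm6 in T96K/T96K against Trem2+/+ (0.072) and S100a4 in T96K/T96K against T96K/+ (0.31). With the number set as a covariate they were Ifitm6 in female T96K/+ against NonTg (0.13) and S100a6 in female T96K/T96K against Trem2+/+ (-0.0014). Quantile normalization turned Thbs1 in female T96K/T96K against NonTg (-0.044) and Plac8 in male T96K/T96K against T96K/+ (-0.0087), which a pseudocount of 0.1 turned as well (-0.23). With 1 library left out, ranges that crossed 0 were, against NonTg in female T96K/+, -0.52 to 0.49 for Ifitm6, -1.06 to 0.19 for Ly6c2 and -0.60 to 0.15 for S100a4, and in T96K/T96K -0.19 to 0.23 for Thbs1. Against female Trem2+/+ they were -0.57 to 0.010 for Plac8 and -0.24 to 0.55 for S100a6 in T96K/T96K, and -0.27 to 0.084 for Thbs1 in T96K/+. In males they were -0.44 to 0.012 for Fn1 in T96K/T96K against Trem2+/+, and -0.29 to 0.37 for Plac8 and -0.37 to 0.22 for S100a4 in T96K/T96K against T96K/+. Some weak correlations turned sign, such as Plac8 and Thbs1 in females within high-numbered libraries (0.098) and Thbs1 and Lyz2 in males without the 2 farthest libraries (-0.20). Within a number set or without the 2 farthest libraries, those that did involved Thbs1 or the Ly6c2 and Ly6c1 pair. As deviations from group means, Fn1 and Lyz2 in females (0.063) turned as well. So did S100a6 and Lyz2 (-0.11) and Lyz2 and Lyz1 (-0.10) in males.

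No paired analysis was possible because library numbers are unique within a sex, so no 2 groups of a table share one. Most Vcan values and the lowest Plac8, Ly6c2, S100a4 and Ifitm6 values rest on few reads. In female T96K/+ the lowest Plac8 value rests on 2 reads and the lowest S100a4 value on 1. For Vcan, Ly6c2 and Ifitm6 low read numbers occurred in deep libraries as well. Group sizes of 5 to 9 libraries with a wide spread limit all comparisons of the 5 correlated genes.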
